A study of Mus musculus with 12 samples.

Results

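The comparison described here is between hearts of Jarid2 mutant mice and of their controls at postnatal day 10 (P10). Its members were chosen by label alone: the 3 libraries of mutant hearts and the 3 libraries of control hearts taken at day 10, which are 6 of the 12 libraries in the study. All mice were homozygous for the floxed allele (Jarid2 f/f) and of mixed 129/Svj and C57BL/6 background. Controls were aMHC-+/+;Jarid2 f/f and mutants were aMHC-C/+;Jarid2 f/f. The letter C was taken to mean Cre driven by the alpha myosin heavy chain promoter, whose activity is in cardiac muscle cells. Controls lack this allele, so an effect of Cre itself and an effect of Jarid2 loss cannot be told apart. The other 6 libraries are the same genotypes at 7 months and entered the fit to estimate the spread. The study asked what loss of Jarid2 in the myocardium does to the heart, and names dilated cardiomyopathy, an enlargement of the chambers with weak contraction. Each library holds poly-A RNA of whole heart tissue. In such bulk RNA, fewer cells of a type and less RNA per cell cannot be told apart. The labels do not say whether replicates were separate animals or pools, and p-values speak only of the spread among these libraries.

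Jarid2 binds Polycomb repressive complex 2 (PRC2), a complex that methylates lysine 27 of histone H3 and keeps developmental regulators silent in cells that do not use them. Typical PRC2 targets are homeobox genes with CG-rich promoters, among them the Iroquois (Irx) transcription factors. In the heart, Irx factors set differences between chambers, between layers of the ventricular wall, and between conduction and working muscle. Jarid2 is needed for normal heart development, and in early postnatal life the heart muscle leaves the cell cycle and turns to oxidative metabolism.

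Of the 6 P10 libraries, 5 were deep (37624037 to 52926715 estimated counts) and P10 control 2 held 241419. A single read in control 2 is worth 3.33 CPM (counts relative to the library total, with edgeR's TMM scaling). Its value for a low gene is therefore a few reads or none. Ventricular muscle genes were high in all 6 libraries: Myl2, a ventricular myosin light chain, was at 8036 to 12963 CPM. The 7 lung epithelium markers did not reach the level needed for testing. Atrial markers varied within groups. Myl7, an atrial myosin light chain, was at 231, 23.3 and 157 CPM in controls 1 to 3 and at 106, 34 and 214 CPM in mutants 1 to 3.

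X- and Y-linked transcripts did not sort the libraries into a single pattern. Xist, the X-inactivation RNA, was at 0.887, 117 and 236 CPM in controls and at 376, 0.640 and 291 CPM in mutants. Eif2s3y, a Y-linked gene, was at 56.1, 13.3 and 24.2 CPM in controls and at 0.0753, 59.2 and 23.8 CPM in mutants. Control 2, control 3 and mutant 3 thus held both transcripts, control 1 and mutant 2 held the Y-linked one with little Xist, and mutant 1 held Xist with almost no Eif2s3y. The labels give neither sex nor pooling, and the part of this in the results was not tested.

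Mitochondrially encoded transcripts took a larger share of the counts in each mutant than in any control, and globin transcripts a smaller one. The mitochondrial share was 26.97%, 31.6% and 31.8% in controls 1 to 3 (mean 30.1% ± 2.74, SD, n = 3) and 36.5%, 36.4% and 36.1% in mutants 1 to 3 (36.3% ± 0.230, SD, n = 3). The globin share was 1.00% ± 0.135 in controls and 0.580% ± 0.108 in mutants (SD, n = 3 each). For both shares the groups did not overlap, and the two-sided exact permutation test gave p = 0.1, which is the lowest value possible with 3 against 3. Without control 1 the control mean of the mitochondrial share was 31.7%.

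**Figure D1:**
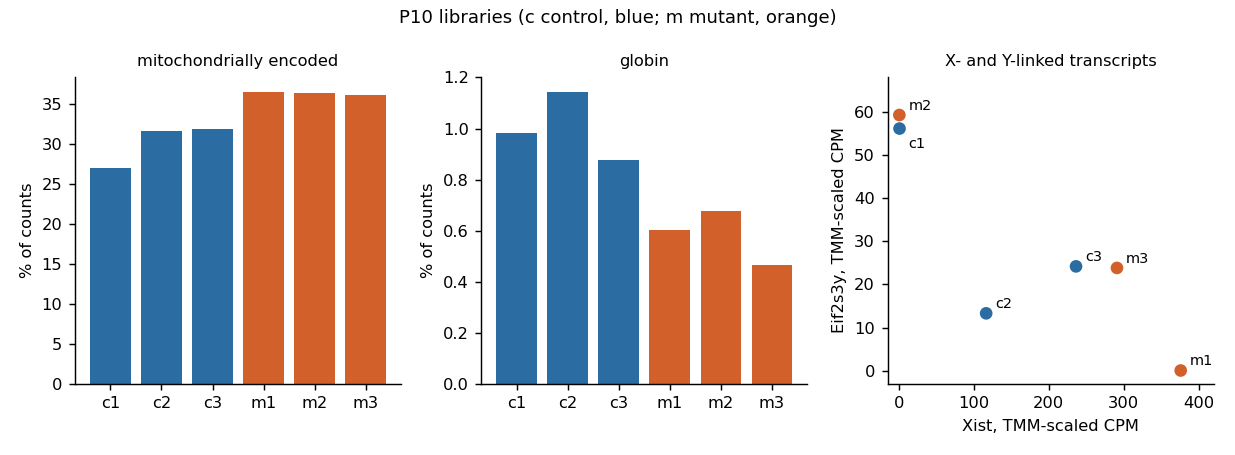
Share of counts from mitochondrially encoded genes (left) and globin genes (middle) in each P10 library, and Xist against Eif2s3y in TMM-scaled CPM (right); bars and points are single libraries (c, control; m, mutant). The 3 mutants lie at 36.1% to 36.5% mitochondrial counts, above all controls, while the X- and Y-linked transcripts do not follow genotype.

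Jarid2 itself (coding row, chromosome 13, 44730774 to 44921643, GRCm38.p6) was not called. Controls 1 to 3 held 32.4, 33.3 and 36.9 CPM and mutants 1 to 3 held 36.1, 41.7 and 33.4 CPM. The groups overlapped, with a log2 fold change of 0.10 (SE 0.11, adjusted p = 0.716 by edgeR's quasi-likelihood test). The row sums every exon over muscle and non-muscle cells, and which exons are floxed is not stated in the labels, so this count does not check the genotypes at P10. Directions below rest on those labels.

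Few genes passed the threshold at P10. Of 15478 rows tested, 9 were called (adjusted p under 0.05), which is 0.0581%: 8 higher in mutants (0.0517%) and 1 lower (0.00646%). The higher rows were the homeobox genes Irx2 and Irx1, the Popeye domain gene Bves, the receptor regulator Lrig1, the guidance ligand Ntn1, the coding rows of Ano4 and Fam120b, and the non-coding RNA 9330158H04Rik. The lower row was Dapk1, a pro-death kinase. Without the shallow control 2, the calls were 2 of 15771 rows (0.0127%), Ano4 and Irx2, although the fold changes of the other 7 moved little. Control 1 also decided calls: without it only Ano4 was called, and rows with an unadjusted p under 0.05 numbered 698 in place of 1897 (12.3%). Other fits called different numbers: DESeq2 31 rows (0.200%), limma voom 4 (0.0258%), edgeR with rows of a symbol summed 8 (0.0532%), edgeR on the P10 libraries alone 51 (0.345%), and on these without control 2 only 3 (0.0198%). In a principal component analysis of the 5 deep libraries the first component (37.96% of the variance) held control 1 at -39.6, control 3 at -16.1 and the mutants between 7.42 and 26.1.

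**Figure D2:**
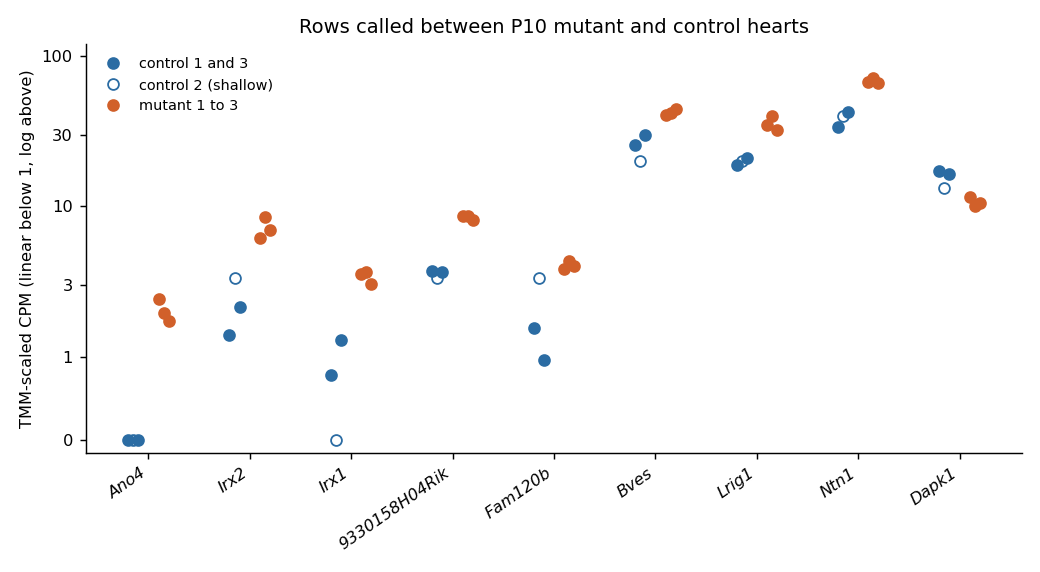
TMM-scaled CPM of the 9 called rows in each P10 library, on an axis that is linear below 1 and logarithmic above; filled points are deep libraries and the open point is the shallow control 2. For each row all 3 mutants lie on one side of all 3 controls. The rows were chosen by adjusted p in the same libraries, so this separation is partly given by that choice. The control 2 points of Irx2, Fam120b and 9330158H04Rik are each a single read, and those of Ano4 and Irx1 are no read. For these rows control 2 adds no usable value. Its points of Dapk1, Bves and Lrig1 are 4, 6 and 6 reads.

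Irx2 and Irx1 rose. Irx2 (chromosome 13, 72624430 to 72634196) was at 1.40, 3.33 and 2.15 CPM in controls 1 to 3 and at 6.13, 8.48 and 6.99 CPM in mutants 1 to 3. In reads these were 63, 1 and 105 against 244, 477 and 365, so both deep controls lay well below the lowest mutant. The log2 fold change was 2.00 (SE 0.23, adjusted p = 0.00463), and without control 2 it was 2.02 (adjusted p = 0.0158). In the P10 libraries alone and without control 2 it was 2.04 and was not called (adjusted p = 0.0635). Without control 1 the call ended (adjusted p = 0.176). Irx1 (71958232 to 71963723), which like Irx2 encodes a homeobox transcription factor, was at 0.776, 0 and 1.29 CPM in controls and at 3.54, 3.66 and 3.04 CPM in mutants. Neither deep control reached the lowest mutant. Control 2 had no read, and a single read there is worth 3.33 CPM, so its value cannot separate the groups. The log2 fold change was 1.74 (SE 0.26, adjusted p = 0.0391). Its call did not hold when any single P10 library was left out of the fit of 12 libraries, with log2 fold changes of 1.44 to 2.16 and adjusted p of 0.0503 to 0.698.

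The third gene of the same cluster, Irx4, was not called. Irx4 (73259589 to 73269622), the ventricular member of the family, was at 35.9, 23.3 and 34.6 CPM in controls and at 35.1, 29.3 and 33.4 CPM in mutants, a log2 fold change of -0.09 (SE 0.11, adjusted p = 0.756). Irx1 and Irx2 are 661 kb apart and Irx2 and Irx4 are 625 kb apart. Per transcript length, Irx4 was the most abundant of these genes, at 19.1 TPM (a transcript level corrected for length) in the mean of the deep controls and 15.5 TPM in mutants. On the same TPM scale Irx2 was at 0.938 and 3.37, and Irx1 at 0.70 and 2.06. The rise of Irx2 and Irx1 thus left both well below the level of Irx4. Of the second cluster on chromosome 8, Irx3 had a log2 difference of 0.85 (adjusted p = 0.308) and Irx5 of 0.69 (adjusted p = 0.295). Neither was called, and their deep libraries did not overlap between groups, which held for 18.4% of all rows on the higher side and 22.2% on the lower. In the shallow control 2, Irx3 was at 16.6 CPM (5 reads), above all mutants. Irx6 was not tested, with 1 read in the 6 libraries.

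To show what the start of a gene of this family looks like, the promoters of Irx2, which rose, and of Irx4, which was not called, are printed from 250 bases before to 50 bases after the start of the gene. Both are from RefSeq (GRCm38.p6), on the plus strand; the starts used lie inside the outer bounds of both genes, at chr13:72628570-72628869 and chr13:73260247-73260546. Capitals mark CG dinucleotides (C followed by G, which reads the same on both strands), the feature by which CpG islands are recognised.
Irx2: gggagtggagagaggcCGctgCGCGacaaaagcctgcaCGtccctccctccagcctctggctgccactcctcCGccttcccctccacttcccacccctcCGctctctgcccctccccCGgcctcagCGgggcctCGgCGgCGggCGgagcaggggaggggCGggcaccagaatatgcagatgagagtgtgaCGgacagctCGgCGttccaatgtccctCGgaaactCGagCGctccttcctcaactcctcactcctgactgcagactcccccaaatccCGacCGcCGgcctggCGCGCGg
Irx4: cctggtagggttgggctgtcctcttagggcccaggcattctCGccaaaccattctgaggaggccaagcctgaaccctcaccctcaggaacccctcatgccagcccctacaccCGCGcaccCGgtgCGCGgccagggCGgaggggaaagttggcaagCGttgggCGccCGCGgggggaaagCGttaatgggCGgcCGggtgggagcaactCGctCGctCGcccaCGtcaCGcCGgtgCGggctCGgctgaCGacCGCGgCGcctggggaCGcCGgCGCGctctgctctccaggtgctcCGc
The Irx2 window holds 25 CG dinucleotides and that of Irx4 holds 31. Over 32817 promoters of this length the median is 7, 94.6% hold at least 1, 18.4% hold as many as Irx2 or more, and 10.6% as many as Irx4 or more. The called Lrig1 (35) and Dapk1 (38) are as dense, in genes that moved in opposite directions, while Fam120b holds 16 and 18 at its 2 listed starts, 9330158H04Rik holds 10 and Ano4 holds 3. A high CG count is thus found among genes that rose, that fell and that were not called. Irx1, Ntn1 and Bves are not among the promoters used.

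Bves, Lrig1 and Ntn1 rose from a moderate level. Bves (Popdc1, chromosome 10, 45335735 to 45372484), a cyclic AMP binding membrane protein of heart muscle that is needed for normal pacemaking, was at 25.5, 19.97 and 29.7 CPM in controls and at 40.2, 41.9 and 44.4 CPM in mutants. The groups did not overlap, and the log2 fold change was 0.63 (SE 0.10, adjusted p = 0.0403). The other Popeye domain genes had smaller differences, 0.26 for Popdc2 (adjusted p = 0.379) and 0.24 for Popdc3 (adjusted p = 0.453).

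Lrig1 (chromosome 6, 94604529 to 94700298), a membrane protein that leads growth factor receptors of the ERBB family to degradation, was at 18.9, 19.97 and 20.8 CPM in controls and at 34.5, 39.9 and 31.9 CPM in mutants. The lowest mutant was above the highest control, with a log2 fold change of 0.83 (SE 0.13, adjusted p = 0.0443). Of the 15 tested LRIG genes, ERBB receptors and ligands, Lrig1 was the one called. The ligand Hbegf followed in order of p, at 0.54 (adjusted p = 0.330), and the neuregulin receptors Erbb2 and Erbb4 were at 0.15 (adjusted p = 0.570) and 0.48 (adjusted p = 0.495).

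Ntn1 (chromosome 11, 68209364 to 68386826), a secreted guidance cue for axons and vessels, was at 33.8, 39.9 and 42.4 CPM in controls and at 66.8, 71.3 and 66.1 CPM in mutants. The groups were clearly apart, with a log2 fold change of 0.83 (SE 0.13, adjusted p = 0.0443). None of the 8 other tested netrin genes was called. Its receptors Neo1 and Unc5b had log2 differences of 0.14 and -0.01 (adjusted p = 0.593 and 0.995).

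Dapk1 (chromosome 13, 60601723 to 60763191), a calcium and calmodulin regulated kinase that promotes cell death, fell. It was at 17.3, 13.3 and 16.5 CPM in controls and at 11.6, 9.99 and 10.4 CPM in mutants. All mutants were below both deep controls, while the value of control 2 is 4 reads. The log2 fold change was -0.65 (SE 0.10, adjusted p = 0.0403), and without control 2 it was -0.66 and not called (adjusted p = 0.0792). Its relatives Dapk2 (0.23), Dapk3 (-0.04) and Stk17b (-0.15) had adjusted p of 0.721 to 0.934.

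The uncharacterised RNA 9330158H04Rik (chromosome 6, 36333138 to 36388234) rose from 3.70, 3.33 and 3.67 CPM in controls to 8.59, 8.66 and 8.06 CPM in mutants. Values of the deep libraries within each group were close together, while the value of control 2 is a single read. The log2 fold change was 1.20 (SE 0.18, adjusted p = 0.0391). Like Irx1, Fam120b, Bves, Lrig1, Ntn1 and Dapk1, it was not called when any single P10 library was left out of the fit of 12 libraries. In the P10 libraries alone and without control 2 it was called (1.22, adjusted p = 0.0267).

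At 7 months, in the same fit, 19.1% of rows were called between genotypes (9.83% higher). Of the 9 rows called at P10, Irx2 and Bves were called there as well, both higher, with log2 fold changes of 0.64 (adjusted p = 0.0321) and 0.31 (adjusted p = 0.0274). The difference between the effects at both ages was called for 9.39% of rows. The 7-month libraries all held little Xist (0.378 to 0.996 CPM) and 39.0 to 44.1 CPM of Eif2s3y, whereas the P10 libraries were mixed. Age thus differs together with these transcripts, and their part in the differences between ages was not tested.

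**Figure D3:**
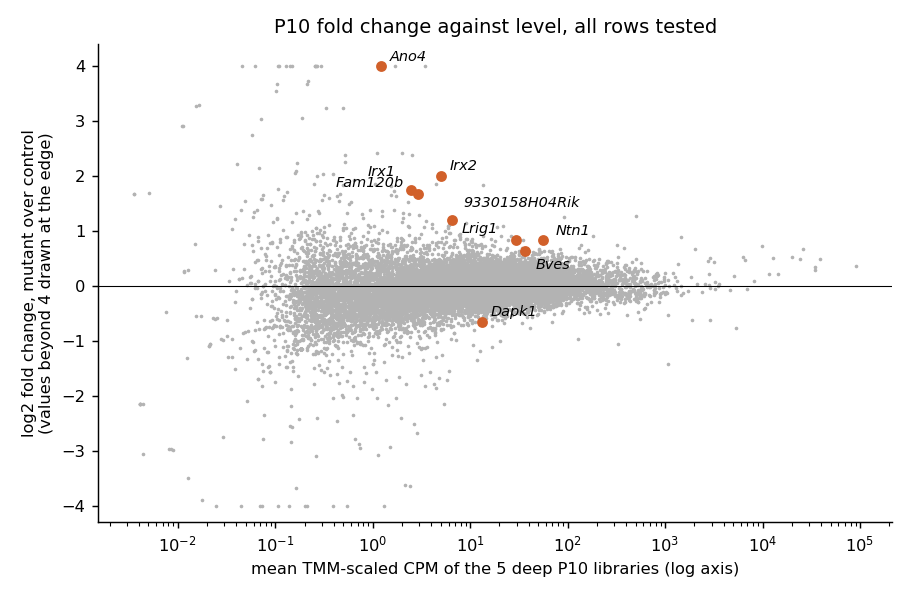
Log2 fold change of mutants over controls against the mean TMM-scaled CPM of the 5 deep P10 libraries, for all rows tested; called rows are orange and named, and values beyond 4 are drawn at the edge. Of the 9 called rows 8 lie above 0 and Dapk1 lies below; rows at low levels scatter most.

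Ano4 and Fam120b were called only for their coding rows. The tables list coding and non-coding transcripts of a symbol as separate rows, and reads that fit both are divided between them by estimation. The coding row of Ano4, a calcium-dependent membrane protein of the anoctamin family (chromosome 10, 88948932 to 89345205), had no read in any control and 96, 110 and 90 reads in mutants 1 to 3. Taking 3 counts over the control group as the floor, it was at least 62.7-fold higher in mutants (adjusted p = 0.00160), and at least 30.2-fold without control 3. This floor does not cover errors in how reads are divided between the coding and non-coding rows. The non-coding row of Ano4 was at 3.46, 0 and 2.03 CPM in controls and at 0.502, 2.01 and 1.61 CPM in mutants. With both rows summed, the log2 difference was 0.34 (adjusted p = 0.510) and the call ended. At 7 months the coding row was at 2.96 to 5.95 CPM in controls and at 2.33 to 3.99 CPM in mutants.

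The coding row of Fam120b, a coactivator of the nuclear receptor PPAR-gamma (chromosome 17, 15396202 to 15433581), was at 1.55, 3.33 and 0.962 CPM in controls and at 3.84, 4.30 and 4.0 CPM in mutants. It rose, with a log2 fold change of 1.67 (SE 0.25, adjusted p = 0.0391). Its non-coding row was far higher, at 20.1, 16.6 and 20.9 CPM in controls and 16.2, 14.4 and 18.0 CPM in mutants. The sum of both rows had a difference of -0.10 (adjusted p = 0.661), so the direction did not hold for the gene as a whole.

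Such opposite pairs were also seen among the rows with the lowest p on the lower side. The non-coding rows of Slc35c2, Jmjd4 and Rnf13 had log2 differences of -1.68, -1.29 and -1.56 (adjusted p = 0.103, 0.194 and 0.198), and their coding rows of 0.47, 0.96 and 1.09 (adjusted p = 0.327, 0.348 and 0.284). For Rnf13 the sum of the rows had a difference of 0.42. Over the 449 tested non-coding rows whose symbol also has a coding row, the median log2 difference was -0.22, against -0.03 over all rows. Over the 853 tested non-coding rows of symbols without a coding row it was -0.11. The non-coding share of the counts was taken over all 585 symbols with both kinds of row, tested or not. It was 18.4% to 20.04% in controls and 15.7% to 17.8% in mutants. At 7 months this share was 11.6% to 13.1% in controls and 12.5% to 14.0% in mutants.

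**Figure D4:**
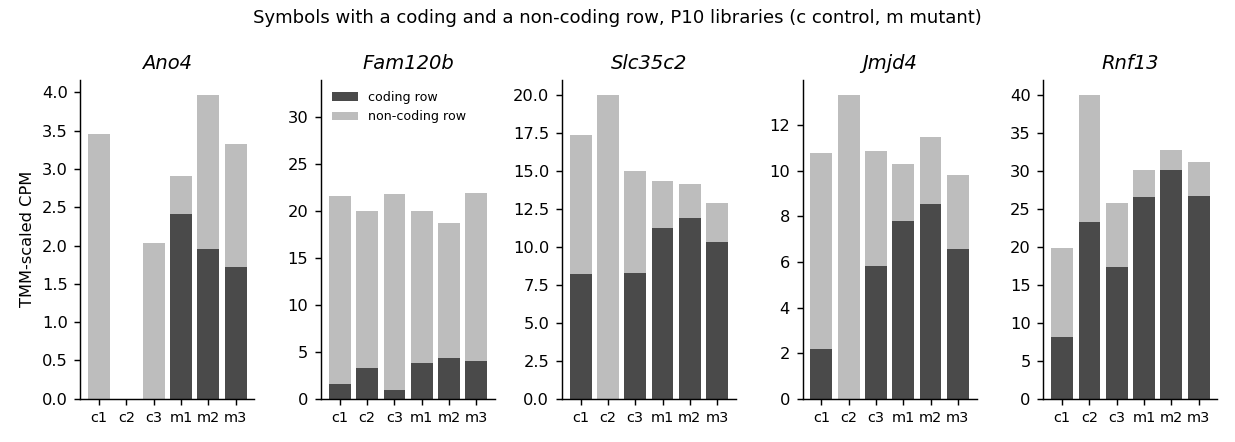
TMM-scaled CPM of the coding row (dark) and the non-coding row (light) of 5 symbols in each P10 library (c, control; m, mutant), stacked. The coding part is larger in each mutant than in each control for all 5 symbols. The height of the whole bar overlaps between groups for Ano4, Fam120b and Jmjd4. For Rnf13 it overlaps only through the shallow control 2, at 39.9 CPM. The deep controls of Rnf13 are at 19.8 and 25.7 CPM and the mutants at 30.1 to 32.6 CPM.

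Below the threshold, the higher rows with the lowest p were Ankrd1 and Tmem41a. Ankrd1, a stress-responsive protein of the sarcomere and nucleus, was at 233, 213 and 338 CPM in controls and at 581, 631 and 740 CPM in mutants. The log2 difference of 1.27 (SE 0.21) had an adjusted p of 0.0536, and of 0.157 without control 2. The deep groups did not overlap, which was a condition for naming rows below the threshold. The coding row of the membrane protein gene Tmem41a had a difference of 1.09 (adjusted p = 0.0745). Its non-coding row had one of -0.60 (adjusted p = 0.707). With both rows summed the difference was 0.47 (adjusted p = 0.255). On the lower side the coding rows were Lgals4 (-0.77), Ppp1r9a (-0.50), Amy1 (-0.68), Arhgef2 (-0.40), Wnk4 (-1.14) and Phactr1 (-0.68), with adjusted p of 0.194 to 0.198. In Lgals4, Amy1 and Phactr1 control 2 lay within or below the mutants.

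The hallmark genes of a failing heart did not pass the test at P10. Nppa, the atrial natriuretic peptide, was at 246, 53.3 and 96.2 CPM in controls and at 111, 101 and 201 CPM in mutants, a log2 difference of -0.13 (SE 0.52, adjusted p = 0.945). Nppb, the brain natriuretic peptide, was at 74.7, 23.3 and 54.1 CPM in controls and at 79.5, 65.7 and 106 CPM in mutants (0.48, SE 0.33, adjusted p = 0.572). Both sets overlapped in the deep libraries.

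The myosin heavy chains also overlapped between groups. Myh6, the adult chain of the mouse ventricle, was at 15403, 10852 and 11999 CPM in controls and at 15064, 15373 and 14022 CPM in mutants (0.22, SE 0.15, adjusted p = 0.556). Myh7, the fetal chain, ranged from 286 to 682 CPM in controls and from 32.8 to 459 CPM in mutants (-1.06, SE 1.05, adjusted p = 0.692). Of 16 cardiac stress genes tested, 1 had an unadjusted p under 0.05 (Ankrd1), and the median log2 difference was 0.02, and 0.25 without control 1.

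Gene lists are given by how many members had an unadjusted p under 0.05 in each direction. Over all rows that share was 6.87% higher and 5.38% lower, and the median log2 difference was -0.03. Members of a list share libraries and are not independent, lists share members, and apart from the rows called above no member named below passed the adjusted threshold.

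Among 36 developmental regulators known as PRC2 targets in many tissues, 17 had enough counts to test. Irx2 and Irx1 were called, 8 were higher and 2 lower at the unadjusted level, and the median was 0.65. The filter keeps a row that is expressed in a single group, so these 17 do not stand for all 36. Hand1, a factor of the left ventricle and outer curvature of the embryonic heart, had no read in any control and 64 reads over the mutants, at least 13.6-fold higher (adjusted p = 0.108), and at least 6.53-fold without control 3 or 7.07-fold without control 1. Tbx18, a factor of the epicardium and sinus node, had a difference of 0.58 (adjusted p = 0.277). Without control 1 the median of the list was 0.39. Most tested Hox genes had a lower sign: of 28, 11 were tested, 10 of these were lower in value and the median was -0.42. The list had 1 member past the unadjusted level, Hoxa4, at 0.598, 0 and 0.614 CPM in controls and at 0.377, 0.249 and 0.230 CPM in mutants.

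No Polycomb subunit was called. Of 13 PRC2 subunits and partners 1 was lower at the unadjusted level, the methyltransferase Ezh2 (-0.30, adjusted p = 0.403). The other core subunits Eed and Suz12 were at 0.19 and 0.20 (adjusted p = 0.51 and 0.55). Of 19 PRC1 subunits, which ubiquitinate histone H2A, 4 were higher at the unadjusted level and none lower. They were the ring finger partners Pcgf5 (0.50, adjusted p = 0.134), Pcgf6 (1.07, adjusted p = 0.216) and Bmi1 (0.47, adjusted p = 0.376), and the adaptor Rybp (0.54, adjusted p = 0.285).

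Of 26 tested cardiac transcription factors, 7 were higher and 1 lower at the unadjusted level, with a median of 0.14, and of 0.07 without control 1. Besides Hand1 these included Esrrg, an oestrogen-related receptor of the oxidative programme (1.14, adjusted p = 0.229), Hopx (0.41, adjusted p = 0.323) and Tbx5 (0.31, adjusted p = 0.355).

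The 13 mitochondrially encoded proteins all had a higher sign, against 45.9% of all rows, and 8 had an unadjusted p under 0.05, with log2 differences of 0.28 to 0.88 and a median of 0.50. Of 39 nuclear genes of the respiratory chain, 2 were higher and none lower at that level, with a median of 0.03. Of 23 genes of the tricarboxylic acid cycle, 7 were higher and none lower (median 0.19), led by Suclg2, a subunit of succinyl-CoA ligase, at 60.2, 39.9 and 65.0 CPM in controls and 88.5, 93.4 and 89.6 CPM in mutants (0.58, adjusted p = 0.196). Of 28 fatty acid oxidation genes none was past the unadjusted level in either direction (median 0.09).

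Of 22 calcium handling genes, 9 were higher and none lower at the unadjusted level (median 0.26). Slc8a1, the sodium-calcium exchanger, was at 105, 117 and 125 CPM in controls and at 162, 189 and 181 CPM in mutants, without overlap (0.62, SE 0.14, adjusted p = 0.198). Camk2d, a calcium-regulated kinase, was at 0.52 (adjusted p = 0.284), and Asph and Trdn of the junctional reticulum at 0.44 and 0.30 (adjusted p = 0.297 and 0.327).

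Of 18 genes of the intercalated disc, 6 were higher and 1 lower (median 0.26, and 0.17 without mutant 2). Cdh2, the cadherin of the disc, was at 78.9, 89.9 and 112 CPM in controls and at 128, 169 and 161 CPM in mutants (0.69, SE 0.18, adjusted p = 0.229). Ctnna1 and Cxadr were at 0.42 and 0.46 (adjusted p = 0.229 and 0.286). The gap junction gene Gja5, of atrial and conduction muscle, was on the lower side (-0.56, adjusted p = 0.296).

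Of 31 genes mutated in dilated cardiomyopathy, 10 were higher and none lower at the unadjusted level, with a median of 0.15, and of 0.09 without control 2. Among these were Ankrd1, the cardiac actin Actc1 (0.47, adjusted p = 0.229) and the actin-binding Z-disc protein Nexn (0.36, adjusted p = 0.293). Actc1 and Nexn are also 2 of the 3 genes past that level among 20 adult sarcomere genes, which had a median of 0.16, and of 0.07 without control 2.

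Of 18 Notch pathway genes, 5 were lower and 1 higher at the unadjusted level (median -0.19), among them the receptors Notch1 (-0.32) and Notch3 (-0.28) and the ligand Dll4 (-0.27), with adjusted p of 0.335 to 0.363. Of 27 TGF-beta and BMP genes, 3 were higher, led by the ligand Bmp7 (1.11, adjusted p = 0.205), and 1 lower, the ligand Tgfb1 (-0.53, adjusted p = 0.292). Of 32 cell cycle genes 2 were higher and 2 lower. Ccnd2, cyclin D2, was at 59.7, 66.6 and 69.8 CPM in controls and at 97.9, 105 and 91.0 CPM in mutants (0.59, SE 0.10, adjusted p = 0.0803). The median of the cell cycle list was -0.19, and -0.06 without control 1.

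Markers of red cells, endothelium, macrophages and epicardium mostly had a lower sign in mutants. All 8 tested red cell markers had a lower sign (median -0.61), with summed levels of 7611 to 9241 CPM in controls and 4312 to 6422 CPM in mutants. Of 14 endothelial markers 4 were lower and none higher at the unadjusted level (median -0.13, and -0.07 without control 1), with summed levels of 2054 to 2286 CPM in controls and 1893 to 1955 CPM in mutants. The endothelial growth factor-like gene Egfl7 was at 206, 176 and 197 CPM in controls and at 149, 129 and 143 CPM in mutants (-0.49, adjusted p = 0.239), and Vwf was at -0.56 (adjusted p = 0.264). A lower sign was also held by 10 of 11 macrophage markers (median -0.18, and -0.11 without control 1 or -0.28 without control 3). The same held for 8 of 9 epicardial markers (median -0.49, and -0.74 without control 1 or -0.26 without control 3). Of these, 0 macrophage markers and 1 epicardial marker were past the unadjusted level. Summed macrophage levels were 160, 113 and 158 CPM in controls 1 to 3 and 158, 138 and 122 CPM in mutants 1 to 3. Summed epicardial levels overlapped, at 52.5 to 71.2 CPM in controls and 47.6 to 58.6 CPM in mutants. A lower sign was held by 7 of 11 fibroblast, 8 of 11 mural and 9 of 11 lymphocyte markers, against 8376 of all 15478 rows. The mural median was -0.08, and 0.02 without control 1. Summed mural levels did not go lower, at 2074 to 2322 CPM in controls and 2217 to 2483 CPM in mutants. Of all rows tested, 45.9% had a higher sign. Several Notch genes above are also expressed in endothelium. Ventricular muscle markers summed to 42421, 37493 and 40927 CPM in controls 1 to 3 and 43777 to 46652 CPM in mutants. Their median log2 difference was 0.18, and 0.07 without control 2. The part of these shifts in the gene lists above was not tested.

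**Figure D5:**
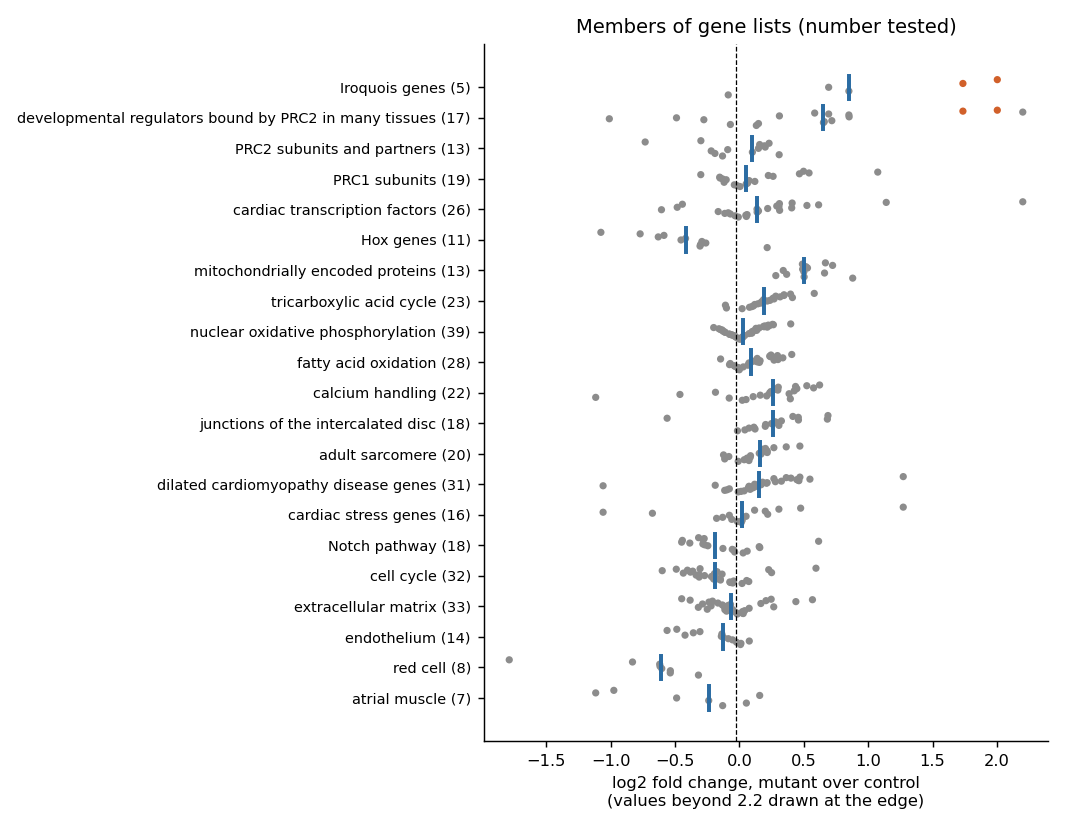
Log2 fold change of mutants over controls for the tested members of 21 gene lists (grey points; called members orange; values beyond 2.2 at the edge), with each list's median (blue bar) and the median of all rows (dashed line, -0.03). The Iroquois list and the PRC2 targets have medians of 0.85 and 0.65, the mitochondrially encoded genes 0.50, and the Hox genes and red cell markers -0.42 and -0.61.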

How the data were processed

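RNA of 12 heart samples was extracted with TRIZOL, and poly-A libraries were made with a stranded kit, per the labels' protocols. The submitters' processing notes name Bowtie 1.1.2, RSEM 1.3.0 and GRCm38.p6. The deposited tables (25098 rows, 2 lanes per library) give estimated counts and TPM, per the file headers. RSEM divides reads that fit several transcripts, so near-identical genes, overlapping genes, and the coding and non-coding rows of 585 symbols can share reads. The strand setting of the counting was not stated.

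Counts were summed over lanes, rounded, and fitted with edgeR 4.0.16 (R 4.3.3, limma 3.58.1; TMM scaling, robust quasi-likelihood) over all 12 libraries by group, leaving 8 residual degrees of freedom. After filtering by group at a minimum count of 10, 15478 rows were tested and 9620 were not. Two-sided p-values were adjusted over all tested rows (Benjamini-Hochberg), and a row with an adjusted p under 0.05 is called. TPM served to compare levels between genes. Folds against a group without reads use a floor of 3 counts over that group, which covers counting error only, since PCR copies are counted.

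Alternatives were DESeq2 1.42.0, limma voom, other scaling and filters, P10 libraries alone, the replicate number as a block, summed rows, and each P10 library left out. Summed rows without control 2, and the 7-month values of the named genes, were added after seeing the data. Named were Jarid2, Nppa, Nppb, Myh6 and Myh7, all called rows, then rows of lowest p to 10 per direction (at least 1 CPM, deep groups apart, no predicted names), and up to 4 members per list; 1 member that the rule picks is not reported here. The comparison, the rule and the 55 gene lists were chosen with earlier results of these data known, and not all lists are described. Coordinates are from RefSeq GRCm38.p6, which 15154 tested rows matched by symbol. The code of the test was checked on simulated counts with known changes. These had the same spread for every row, so they do not give the error rate in these libraries.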

Additional observations from a re-analysis of the deposited data

Results flagged for a closer look

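Several genes named above had effects that differed between P10 and 7 months, by the difference of both effects in the same edgeR quasi-likelihood fit (adjusted p under 0.05). The called genes were chosen for their P10 change, so a smaller effect at the other age is partly given by that choice. The ages also differ in their X- and Y-linked transcripts, as given above, and the part of this was not tested. Values are the 7-month effect minus the P10 effect on the log2 scale. Among called rows they were -1.36 for Irx2, -1.92 for Irx1, -1.02 for 9330158H04Rik, -1.82 for the coding row of Fam120b, -0.93 for Lrig1 and 0.69 for Dapk1. For the coding row of Ano4 the fitted value was -9.79, which depends on the prior count, since P10 controls had no read. At 7 months Irx2 was at 3.4, 3.57 and 3.91 CPM in controls and 4.78, 5.41 and 6.81 CPM in mutants. Irx1 was at 2.99 to 3.18 CPM in the 7-month controls, and the lowest P10 mutant was at 3.04 CPM.

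Genes named whatever their p also differed. Jarid2 had a difference of -0.65, with a 7-month effect of -0.55 (adjusted p = 0.00369). The natriuretic peptides Nppa and Nppb had differences of 3.85 and 1.98, and Myh6 of -1.02. Of the rows below the threshold at P10, the coding row of Tmem41a differed by -1.17 and Amy1 by -1.04. The non-coding rows of Slc35c2 and Rnf13 differed by 1.91 and 1.77.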

How the results depend on the processing

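Against 9 called rows, DESeq2 called 31 (24 higher, 7 lower; all 9 among them) and limma voom 4 (3 of the 9 among them; Ano4 was not, adjusted p = 0.125). With the P10 libraries alone edgeR called 51 (43 higher, 8 lower; all 9 among them), and 3 when control 2 was left out as well (2 of the 9 among them, Ano4 and 9330158H04Rik). Leaving out single P10 libraries gave 1 to 3 calls. Summing rows and leaving out control 2 gave 1 call. Deviations of same-numbered controls and mutants from their group means had correlations of -0.01, 0.06 and 0.05. The control mean includes the shallow control 2, which lay far from the rest on the first component of the 6 P10 libraries (91.3% of the variance). These correlations therefore cannot decide whether the numbers are pairs. The main fit did not take them as pairs. With the replicate block edgeR called 3 rows in the fit of 12 libraries and 271 in the P10 libraries alone. DESeq2 size factors, the filter alternatives, summed rows, and scaling without mitochondrial and globin rows gave 8 to 11 calls.

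Nppa, not called in these fits, turned to 0.015 with DESeq2, 0.045 with the replicate block and 0.11 with the block in the P10 libraries alone, and ranged from -0.50 to 0.67 without single libraries. With rows summed, Fam120b turned to -0.10 and Rnf13 to 0.42, and without control 2 as well to -0.10 and 0.46. At 241419 counts, control 2 gives no usable value for genes under about 10 CPM, where P10 controls rest on 2 libraries.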
